A study of Mus musculus with 22 samples.

Results

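The nuclear RNA response of male mouse liver to PCN (pregnenolone carbonitrile, a synthetic steroid) was examined 3 h after injection. It rests on 6 of the 22 libraries of the study, which are 3 pools from PCN-treated mice and 3 pools from vehicle-treated mice. The treated group were CD-1 males aged 7 weeks that received PCN at 50 mg/kg in a vehicle of corn oil with 1% DMSO. The vehicle group were CD-1 males of the same age that received corn oil with 1% DMSO alone. Both groups were injected in the early morning and their livers were collected 3 h later, and no genetic modification is named for either. Each pool combined nuclear RNA from 4 livers, so each group stands for 12 mice, and the pools are labelled as separate. Genes were kept where the authors' mean in either group was 1 FPKM or more (sequenced fragments scaled to gene length and library size), which held for 8918 of the 24197 genes of the authors' deposited table.

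PCN activates PXR (gene symbol Nr1i2), a nuclear receptor that binds steroids, bile acids and many drugs and pairs with the retinoid X receptor on DNA. In liver, PXR is best known for switching on Cyp3a and Cyp2b enzymes, conjugating enzymes and transporters that clear foreign chemicals, and for holding down Cyp7a1, the enzyme that limits bile acid synthesis from cholesterol. CAR (Nr1i3) is a related receptor with overlapping targets and is activated in mice by TCPOBOP. RNA was taken from nuclei, selected for poly(A) tails and counted over gene bodies, so it contains transcripts that have not yet left the nucleus.

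The response of a gene is the log2 of the PCN mean over the vehicle mean, with 0.1 FPKM added to both, less the median of that value over the 8918 genes, which was -0.14. A response of 1 therefore stands for a 2-fold rise relative to the typical gene. A gene is called raised or lowered where the authors' deposited table gives an adjusted p below 0.05, with the direction of the authors' ratio of PCN over vehicle. Each FPKM value is the authors' mean of 3 pools, and the spread between the pools is not in the table. The calls rest on the authors' adjusted p, and how that p takes the spread into account is not given in the sources used here. The steps between low values in the table placed the depth at about 20400000 to 31800000 fragments in the PCN pools and 19000000 to 27300000 in the vehicle pools. A single read over 1 kb thus equalled 0.0314 to 0.0491 FPKM in a PCN pool and 0.0366 to 0.0525 FPKM in a vehicle pool. Reads of close paralogs, such as those of the Cyp3a, Cyp2c, Ces, Gstm, Saa and Mup families, cannot be told apart from these values. The libraries are labelled unstranded while the protocol names a directional kit, so reads of genes that overlap each other may not have been separated either, which concerns 23.0% of the 8918 genes. Of the genes named it concerns 1810032O08Rik, Cebpd, Cxcl10, Dbp, Fdft1, Gadd45a, Gas5, Gm6484, Irs2, Mir6392, Nop56, Nop58, Nr1i3, Pnpla3, Rassf4, Rpl12, Snord1c, Snord70, Srebf1 and Ugt1a1.

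Within 3 h PCN raised 1150 genes (12.9% of those tested) and lowered 839 (9.41%). Most of these changes were modest. The median response was 0.57 among raised genes and -0.63 among lowered genes, against limits of -0.64 and 0.69 that enclose the middle 90% of all genes. By the authors' deposited table, 219 raised and 154 lowered genes differed at least 2-fold, 37 and 16 at least 4-fold, and 13 and 2 at least 8-fold. The smallest fold among the called genes in the authors' deposited table was 1.24. The last gene called had an adjusted p of 0.0499 there, and the next one 0.0502. Because of the level filter, 82 raised genes entered through the PCN mean alone and 186 lowered genes through the vehicle mean alone. Raised calls were more frequent among abundant genes. Of the 89 genes with a mean of 100 FPKM or more over both groups, 42 rose and 8 fell, against 183 raised and 206 lowered of 2535 genes between 1 and 2 FPKM and 28 raised and 78 lowered of 380 genes below 1 FPKM. The percentages given after the counts of a gene list are its shares raised and lowered. They are set beside the 12.9% and 9.41% of all genes, which are not matched for level. Of genes with a mean of 5 to 10 FPKM over both groups, 16.5% rose and 9.87% fell. Between 30 and 100 FPKM these shares were 28.1% and 14.5%. A list of abundant genes can therefore exceed 12.9% without exceeding other genes of its level. Lists were not compared with genes of similar level.

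**Figure D1:**
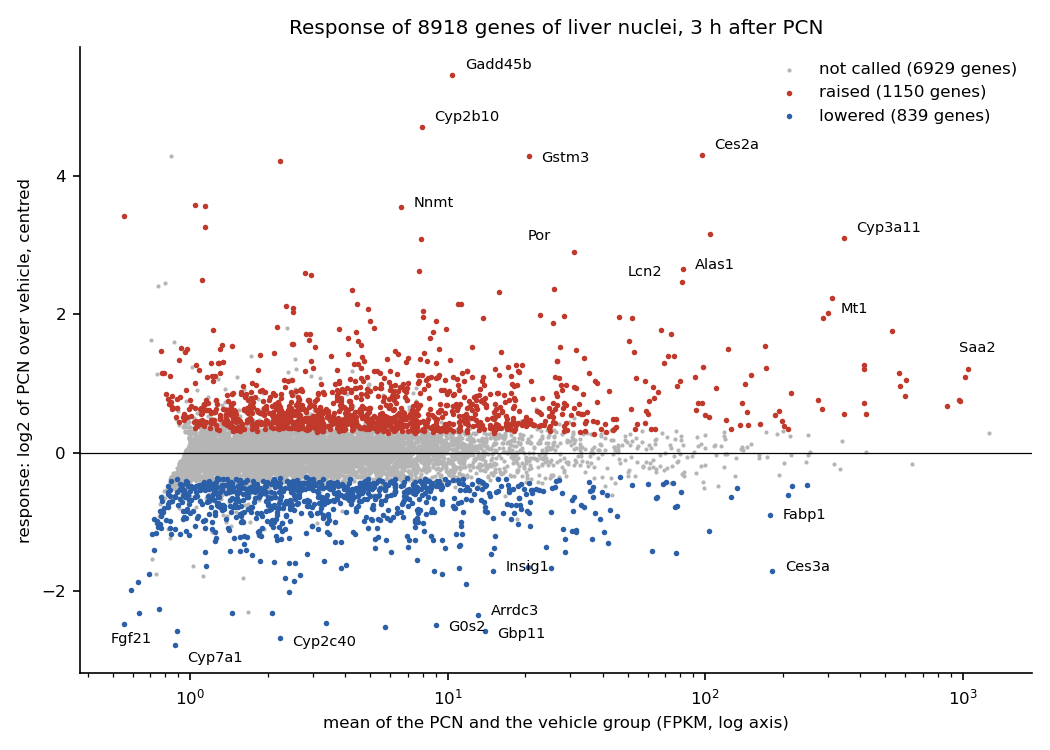
Response of each of the 8918 genes (y axis, centred log2 of PCN over vehicle) against the mean of both groups (x axis, FPKM on a log axis), with raised, lowered and uncalled genes in separate colours. The largest rise, Gadd45b, lies at 5.45, the lowest point named, Cyp7a1, lies at -2.78, and raised genes outnumber lowered ones at the right of the plot.

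The Cyp3a genes, whose products oxidise many drugs and steroids, carried much of the gain in RNA. Cyp3a11, the classical PXR target of mouse liver (NM_007818, mm9 chromosome 5, 146666183 to 146691430), stood at 615 FPKM in the PCN pools and 78.5 FPKM in the vehicle pools. Its response was 3.11, and the authors' deposited table gives a ratio of 8.82 with adjusted p = 7.51e-118. Cyp3a25 averaged 806 FPKM after PCN and 262 FPKM after vehicle, a response of 1.76. Both were among the 10 raised genes with the largest gain in FPKM. Cyp3a59 reached 186 FPKM with PCN, against 22.7 FPKM with vehicle (response 3.17), Cyp3a57 1.93 against 0.298 FPKM (2.49) and Cyp3a13 26.03 against 16.7 FPKM (0.77). The 250 bases before the Cyp3a11 start in RefSeq (GRCm38.p6) are shown because Cyp3a11 is the best-known target of this receptor. They contain a single copy of the nuclear receptor hexamer AGTTCA, read on the opposite strand and set in capitals.
Cyp3a11, chr5:145879855-145880104, minus strand: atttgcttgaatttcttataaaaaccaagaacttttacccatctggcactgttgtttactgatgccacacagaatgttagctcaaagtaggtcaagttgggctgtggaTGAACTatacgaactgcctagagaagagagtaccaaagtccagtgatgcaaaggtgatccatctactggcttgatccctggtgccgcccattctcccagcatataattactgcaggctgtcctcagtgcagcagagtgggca
The hexamer occurs in 13.4% of the 27025 genes with a promoter in that table, in 10.3% of those at 1 FPKM or more and in 12.3% of the raised genes that have one.

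Cytochrome P450 genes outside the Cyp3a family moved in both directions. Cyp2b10, best known as a CAR target (NM_009999, mm9 chromosome 7, 26682677 to 26711643), had 15.3 FPKM in PCN pools and 0.548 FPKM in vehicle pools. The authors' deposited table gives a ratio of 31.1 with adjusted p = 6.76e-107, and the response was 4.71. Cyp2c55 (2.17 FPKM after PCN and 0.110 FPKM after vehicle) rose with a response of 3.57 and entered the analysis through its PCN mean alone. Cyp2c29 followed at 110 FPKM with PCN and 36.8 FPKM with vehicle (response 1.72), and Cyp2c70, a bile acid hydroxylase of mice, at 200 and 100.8 FPKM (1.12). In contrast, Cyp2c40 had 0.480 FPKM after PCN, against 3.97 FPKM after vehicle (-2.68), and Cyp2u1, which hydroxylates long-chain fatty acids, had 0.829 against 4.00 FPKM (-2.01). The abundant Cyp2d13 stood at 157 FPKM in PCN pools and 264 FPKM in vehicle pools (-0.61). Over the 36 Cyp1, Cyp2 and Cyp3 genes at 1 FPKM or more, 12 rose and 9 fell (33.3% and 25%), and the median response was -0.15. Of the 36, 4 passed the level filter through the PCN mean alone, Cyp3a57 and Cyp2c55 among them. Another 5 passed through the vehicle mean alone, Cyp2c40 and Cyp2u1 among them. Within the Cyp4 family, whose members oxidise fatty acids, 2 of 12 rose and 6 fell (16.7% and 50%, median -0.48). Of these 12, 1 passed the filter through the PCN mean alone and 2 through the vehicle mean alone.

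Genes that supply the P450 enzymes with electrons and heme rose in part. Por, the reductase that passes electrons to every microsomal P450 (NM_008898, mm9 chromosome 5, 136165084 to 136211195), averaged 54.0 FPKM in PCN pools and 7.89 FPKM in vehicle pools. Alas1, the first enzyme of heme synthesis, averaged 139 FPKM with PCN and 24.1 FPKM with vehicle. Their responses were 2.90 and 2.66, and the authors' deposited table gives adjusted p = 4.36e-93 for Por and 5.53e-29 for Alas1. Cyb5a, cytochrome b5, rose less, at 60.4 FPKM after PCN and 42.9 FPKM after vehicle (0.63). Of the later enzymes of heme synthesis, Alad, the next in the pathway, fell to 5.52 FPKM with PCN, against 9.17 FPKM with vehicle (-0.58), while Cpox and Fech had responses of 0.10 and 0.00 and were not called. Of the 21 genes in this group, 4 rose and 3 fell (19.0% and 14.3%).

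Conjugating enzymes were raised in some families and lowered in others. All 4 sulfation genes at 1 FPKM or more rose (100%, against 12.9% of all genes), and 16 further members were below that level. Papss2, which makes the sulfate donor, had 17.7 FPKM in PCN pools and 4.29 FPKM in vehicle pools (response 2.15), and Sult1d1 2.53 and 1.16 FPKM (1.198). Among 17 glutathione transferase genes, 4 rose and 2 fell (23.5% and 11.8%). The 4 were Gstm3 (39.3 FPKM with PCN, 2.11 FPKM with vehicle, response 4.29), Gstm2 (13.3 and 4.28 FPKM, 1.75), Gstm1 (49.2 and 26.8 FPKM, 1.01) and Mgst1 (225 and 195 FPKM, 0.34). In glucuronidation the called genes mostly fell, with 1 of 12 genes raised and 4 lowered (8.33% and 33.3%). Ugt2b5, which couples glucuronic acid to steroids and drugs, stood at 16.8 FPKM after PCN and 39.6 FPKM after vehicle (-1.09), and Ugt1a1, the bilirubin transferase, was not called at 2.50 and 2.26 FPKM.

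The carboxylesterases, which split drug and lipid esters, held large responses in both directions. Ces2a (NM_133960, mm9 chromosome 8, 107257903 to 107265534) had 184 FPKM after PCN, against 10.1 FPKM after vehicle. Its response was 4.31, and its adjusted p of 5.41e-242 is the lowest that the authors' deposited table gives among the 8918 genes. Ces3a, the family member with the highest level in vehicle livers, had 79.3 FPKM in PCN pools and 286 FPKM in vehicle pools (-1.71), the largest difference in FPKM among all lowered genes. Ces3b (61.1 FPKM with PCN, 147 FPKM with vehicle, -1.12) and Ces1f (15.8 and 41.4 FPKM, -1.24) fell with it. In all, 3 of 12 carboxylesterases rose and 6 fell (25% and 50%).

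Among 28 other enzymes of foreign-compound metabolism, 3 rose and 12 fell (10.7% and 42.9%), with a median of -0.36. Aox3, an aldehyde oxidase, averaged 38.8 FPKM in PCN pools and 116 FPKM in vehicle pools (-1.44). Alcohol dehydrogenases Adh1 (20.7 FPKM with PCN and 40.8 FPKM with vehicle, -0.84) and Adh4 (18.5 and 44.3 FPKM, -1.12) fell too, as did the flavin monooxygenase Fmo1 (5.19 and 13.8 FPKM, -1.26). One of the 3 that rose was Nnmt, which methylates nicotinamide (NM_010924, mm9 chromosome 9, 48399995 to 48413182). It had 12.1 FPKM after PCN and 1.05 FPKM after vehicle, a response of 3.55. Among 24 aldo-keto reductase and aldehyde dehydrogenase genes, 4 rose and 6 fell (16.7% and 25%). Of the 24, 1 (Akr1b7) passed the level filter through the PCN mean alone and 1 through the vehicle mean alone. Akr1b7, a reductase of aldehydes and bile acids, was low in both groups, with 1.08 FPKM after PCN and 0.0214 FPKM after vehicle. Its response was 3.42, and with a pseudocount of 1 FPKM it is 1.13. Akr1c6, a hydroxysteroid dehydrogenase, stood at 24.9 FPKM after PCN and 53 FPKM after vehicle (-0.95).

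Transport genes included both raised and lowered members. Slco1a4, which imports bile acids and organic anions into the hepatocyte, had 14.1 FPKM in PCN pools and 1.74 FPKM in vehicle pools (response 3.09). Abcc3, which exports conjugates to the blood, had 25.4 and 12.4 FPKM (1.16). The canalicular exporters Abcc2 (17.2 FPKM with PCN, 16.1 FPKM with vehicle) and Abcb11 (31.3 and 29.8 FPKM) were not called, whereas Abcb4, which moves phosphatidylcholine into bile, had 4.68 FPKM with PCN and 10.3 FPKM with vehicle (-0.98). Of 18 uptake transporters, 2 rose and 6 fell (11.1% and 33.3%), and of 25 ABC transporters 3 rose and 6 fell (12% and 24%), so the raised shares of both were near that of all genes.

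**Figure D2:**
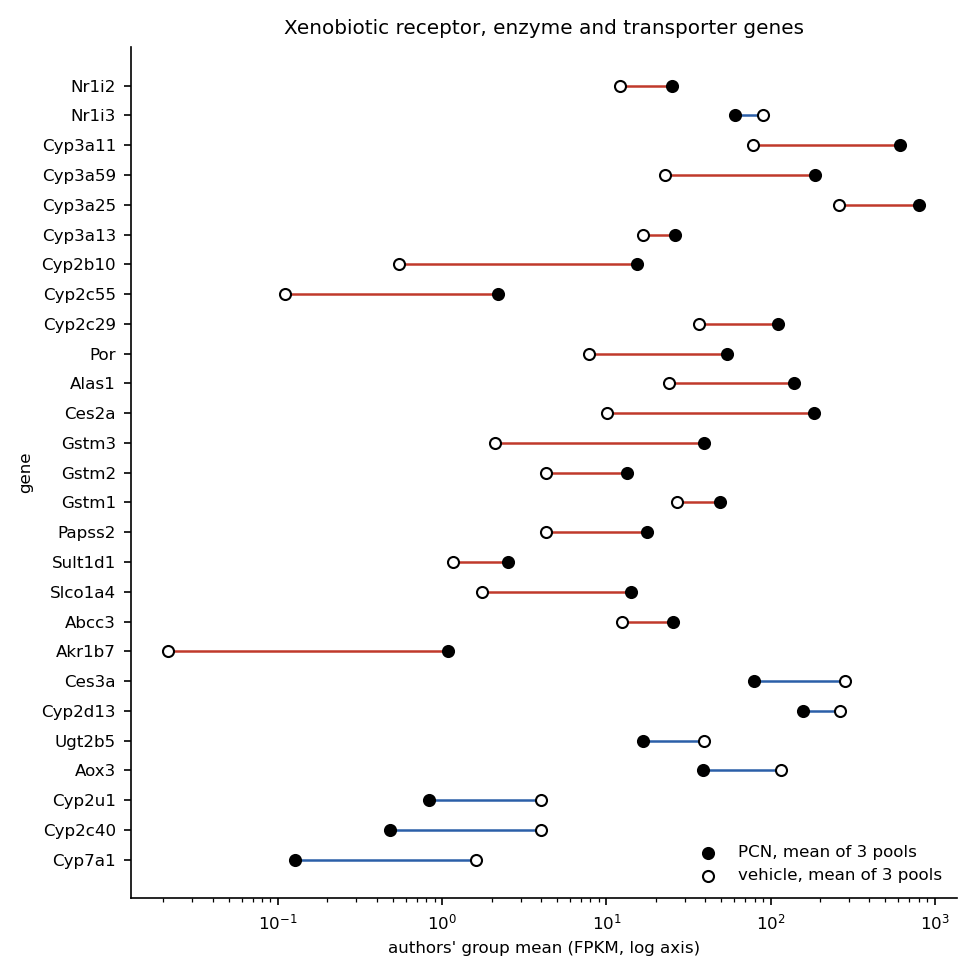
Group means (x axis, FPKM on a log axis) of 27 genes (y axis), with filled points for the PCN group, open points for the vehicle group and a red line where the gene was raised or a blue line where it was lowered. Cyp3a11, Ces2a and Gstm3 lie far to the right of their vehicle points, while Ces3a, Aox3 and Cyp7a1 lie to the left.

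The receptor genes themselves differed. Nr1i2, the gene for PXR, stood at 25.2 FPKM after PCN, against 12.2 FPKM after vehicle, a response of 1.18. Nr1i3, the gene for CAR, stood at 60.5 FPKM after PCN, against 89.9 FPKM after vehicle (-0.43), although its span overlaps another gene. Rxra, which encodes the partner of both, was not called at 11.5 and 12.8 FPKM. Hnf4a, a regulator of hepatocyte identity, rose slightly to 44.7 FPKM with PCN, against 36.8 FPKM with vehicle (0.42), and Ppara, the receptor that controls fatty acid oxidation, fell to 3.67 FPKM, against 7.60 FPKM (-0.89). Of 32 nuclear receptor and cofactor genes, 5 rose and 7 fell (15.6% and 21.9%).

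In bile acid metabolism the first enzyme of synthesis was among the most strongly lowered genes. Cyp7a1 (NM_007824, mm9 chromosome 4, 6192759 to 6202778) had 0.128 FPKM in PCN pools and 1.62 FPKM in vehicle pools. Its response of -2.78 goes with an authors' ratio that is 10.8-fold lower and adjusted p = 2.85e-30 in the authors' deposited table. It entered the analysis through the vehicle mean alone, and with a pseudocount of 1 FPKM its response is -1.11. Cyp8b1, which directs synthesis towards cholic acid, was not called (9.32 FPKM with PCN, 12.1 FPKM with vehicle), and neither was Nr0b2, the repressor SHP (5.32 and 8.49 FPKM). Cyp27a1, which starts the alternative pathway, moved the other way at 233 FPKM after PCN, against 110 FPKM after vehicle (1.22). Fgfr4, the receptor for the intestinal signal that restrains bile acid synthesis, fell to 4.73 FPKM with PCN, against 10.6 FPKM with vehicle (-1.003). Over all 30 genes of the group, 5 rose and 7 fell (16.7% and 23.3%), with a median of -0.05.

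Most genes of cholesterol synthesis fell. Of 27 members, 17 fell (63.0%) and 1 rose (3.70%), and the median response was -0.63, against 0 for all genes by construction and 9.41% lowered among them. Lowered enzymes ran from the early to the last steps of the pathway: Mvk (0.871 FPKM in PCN pools, 1.66 FPKM in vehicle pools, -0.72), Fdps (3.87 and 10.3 FPKM, -1.25), Fdft1 (1.37 and 3.17 FPKM, -1.02), Cyp51 (0.908 and 1.79 FPKM, -0.77) and Sc5d (3.79 and 13.9 FPKM, -1.71). The INSIG pair, which hold back the activation of SREBP transcription factors, split. Insig1 had 6.49 FPKM after PCN and 23.6 FPKM after vehicle (-1.71), and Insig2, the raised member, had 75.7 and 30.2 FPKM (1.46). Of the 27 members, 4 passed the level filter through the vehicle mean alone.

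The promoters of Insig1 and Sc5d, which fell most in the group, are shown because many of these genes share a word there. They are the 250 bases before the start in RefSeq (GRCm38.p6), with CCAATNNG, a form of the CCAAT box, in capitals as it reads on the printed strand.
Insig1, chr5:28071162-28071411, plus strand: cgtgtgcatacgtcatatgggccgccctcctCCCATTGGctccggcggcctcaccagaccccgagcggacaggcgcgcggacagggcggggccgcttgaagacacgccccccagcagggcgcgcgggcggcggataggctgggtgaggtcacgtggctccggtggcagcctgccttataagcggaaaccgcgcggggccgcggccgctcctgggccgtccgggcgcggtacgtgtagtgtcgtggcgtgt
Sc5d, chr9:42264301-42264550, minus strand: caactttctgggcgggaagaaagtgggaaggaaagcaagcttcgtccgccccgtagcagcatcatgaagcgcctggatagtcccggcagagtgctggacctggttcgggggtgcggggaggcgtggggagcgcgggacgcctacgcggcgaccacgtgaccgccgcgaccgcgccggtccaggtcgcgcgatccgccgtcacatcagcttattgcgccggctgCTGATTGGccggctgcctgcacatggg
Of the 19 members with a promoter in the table, 13 held the word in this window (68.4%), against 14.5% of all 27025 genes and 19.3% of the genes at 1 FPKM or more. Over all lowered genes the share was 21.8% and over all raised genes 18.3%, both near that of the genes at 1 FPKM or more. Among genes known to respond to glucocorticoids, most of which rose, 10 of 26 held it (38.5%). In both sequences the E-box CACGTG also occurs, without overlap, and 5 of the 19 members had it (26.3%), against 6.86% of all genes and 10.6% of the genes at 1 FPKM or more. The E-box was in 11.5% of lowered genes, 10.6% of raised genes and 19.2% of the genes known to respond to glucocorticoids. The sterol response element core TCACNCCAC was found in none of the 19, which says only that these letters are not in this window.

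Lipid genes beyond cholesterol were divided. Among 36 genes of fatty acid synthesis and storage, 11 rose and 9 fell (30.6% and 25%). Of the 36, 1 (Pnpla3) passed the level filter through the PCN mean alone and 2 through the vehicle mean alone. With a pseudocount of 1 FPKM the response of Pnpla3 is 1.81. Srebf1, the transcription factor SREBP-1, fell to 11.2 FPKM with PCN, against 23.96 FPKM with vehicle (-0.95), and so did the desaturase Fads2 (7.65 and 15.3 FPKM, -0.85). G0s2, an inhibitor of the lipase Pnpla2, had 2.45 FPKM after PCN, against 15.6 FPKM after vehicle (-2.48). The rises included Thrsp, a lipogenic nuclear protein (72.3 FPKM with PCN, 20.2 FPKM with vehicle, 1.97), Lpin1, a phosphatidate phosphatase (14.98 and 4.68 FPKM, 1.80), and Pnpla3, a lipid-droplet lipase (5.06 and 0.858 FPKM, 2.57). Mir6392 lies inside Pnpla3, so its response of 4.21 cannot be separated from the host gene. Fasn and Scd1, the central synthase and desaturase, were not called, with 5.99 and 8.72 FPKM for Fasn and 32.9 and 26.4 FPKM for Scd1.

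In fatty acid oxidation 14 of 37 genes fell (37.8%) and 5 rose (13.5%), with a median of -0.21. Fabp1, which carries fatty acids in the hepatocyte, had 117 FPKM in PCN pools and 240 FPKM in vehicle pools (-0.89). Among the falls were genes that passed the level filter through the vehicle mean alone, as 4 of the 37 did. Fgf21, a hormone of fasting, had 0.163 FPKM with PCN, against 1.62 FPKM with vehicle (-2.57), Cyp4a14 had 0.883 against 5.83 FPKM (-2.46) and Cyp4a10 had 0.574 against 3.59 FPKM (-2.31). Angptl4, a lipase inhibitor, rose to 23.9 FPKM with PCN, against 13.2 FPKM with vehicle (0.98). Cpt1a, which admits fatty acids to mitochondria, was not called at 9.50 and 10.5 FPKM.

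Amino acid genes were raised more often than lowered. Of 38 genes of the urea cycle and amino acid metabolism, 16 rose and 3 fell (42.1% and 7.89%), with a median of 0.28. Asl, the urea cycle lyase, averaged 81.0 FPKM after PCN and 23.0 FPKM after vehicle (1.95). Tat, the tyrosine transaminase induced by glucocorticoids, averaged 248 and 93.3 FPKM (1.55), and Ahcy, which clears the product of methylation reactions, 40.0 and 22.8 FPKM (0.94). Cps1, the entry enzyme of the urea cycle, rose less, with 68.3 FPKM after PCN and 59.0 FPKM after vehicle (0.35). Among 33 glucose genes, 7 rose and 2 fell (21.2% and 6.06%), and the median response was 0.04, or -0.09 without centring. Pfkfb3, which makes an activator of glycolysis, had 7.04 FPKM with PCN and 1.44 FPKM with vehicle (2.35), and Irs2, an adaptor of the insulin receptor, 3.68 and 1.29 FPKM (1.58). The gluconeogenic genes Pck1 (71.3 FPKM with PCN, 94.8 FPKM with vehicle) and G6pc (32.2 and 49.3 FPKM) were not called, and Pklr, the liver pyruvate kinase, fell to 4.85 against 10.3 FPKM (-0.93).

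Acute-phase genes, which the liver makes in response to injury and inflammatory cytokines, rose in the majority. Of 39 members, 26 rose and 2 fell (66.7% and 5.13%), and the median response was 0.75. They included the most abundant RNAs of the treated nuclei: serum amyloid Saa2 had 1419 FPKM in PCN pools and 675 FPKM in vehicle pools (1.21), and Saa1 had 1352 and 694 FPKM (1.10). The fibrinogen genes Fga, Fgb and Fgg had responses of 0.83, 0.76 and 0.75, with 1176 FPKM after PCN and 762 FPKM after vehicle for Fgb. The largest responses were those of Lcn2, an iron-binding protein of host defence (135 FPKM with PCN, 26.9 FPKM with vehicle, 2.47), and the metallothioneins Mt1 (474 and 129 FPKM, 2.02) and Mt2 (445 and 127 FPKM, 1.95). Serpina3n, a protease inhibitor of plasma that was not in the list, gained 386 FPKM, with 503 FPKM after PCN and 118 FPKM after vehicle (2.23). The transcription factors Cebpb (37.1 FPKM with PCN, 16.1 FPKM with vehicle, 1.33) and Cebpd (4.46 and 1.64 FPKM, 1.53) and the receptors Il1r1 (71.3 and 36.9 FPKM, 1.09) and Il6ra (4.97 and 2.83 FPKM, 0.93) rose as well. The chemokines Ccl2 (0.989 and 2.16 FPKM, -0.92) and Cxcl10 (0.385 and 1.09 FPKM, -1.15) were the 2 that fell. Both passed the level filter through the vehicle mean alone, as 3 of the 39 did. Hepcidin, Hamp, was not called at 345 and 336 FPKM. Neutrophil markers, which share S100a8 and S100a9 with the list, summed to 6.75 FPKM with PCN and 5.24 FPKM with vehicle. By the authors' deposited table, adjusted p was 4.72e-14 for Saa2 and 3.38e-07 for Lcn2.

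The Lcn2 promoter is shown, as RefSeq gives it for GRCm38.p6, because it holds TTGCNNAA, the core that C/EBP proteins bind, once in 250 bases (in capitals).
Lcn2, chr2:32387740-32387989, minus strand: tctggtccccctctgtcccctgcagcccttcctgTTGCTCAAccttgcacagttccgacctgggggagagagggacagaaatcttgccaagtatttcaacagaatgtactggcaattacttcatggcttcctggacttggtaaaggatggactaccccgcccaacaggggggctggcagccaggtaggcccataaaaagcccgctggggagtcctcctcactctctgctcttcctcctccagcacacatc
In 15 of the 33 acute-phase genes with a promoter in the table this word was present (45.5%), against 10.8% of all 27025 genes, 9.57% of those at 1 FPKM or more and 11.7% of raised genes. Among lowered genes the share with the C/EBP word was 10.9%. In the other lists searched it ran from 6.25% (ribosome biogenesis) to 24.1% (Cyp1 to Cyp3). The STAT core TTCNNNGAA was present in 9 of the 33 acute-phase genes (27.3%), against 8.13% of all genes and 6.96% of those at 1 FPKM or more. Raised genes held the STAT core in 8.55% and lowered genes in 7.95%.

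Genes known to respond to glucocorticoids overlapped that group and also rose: 20 of 31 members were raised and 2 lowered (64.5% and 6.45%), with a median of 0.94. Of the 31, 2 passed the level filter through the PCN mean alone and 1 through the vehicle mean alone. Fkbp5, a chaperone of the glucocorticoid receptor, had 7.79 FPKM in PCN pools and 2.21 FPKM in vehicle pools (1.91). Igfbp1, a binding protein of insulin-like growth factors, had 39.5 and 11.7 FPKM (1.88), and Zbtb16, a transcriptional repressor, 4.42 and 1.41 FPKM (1.72). Yet other classical members were not called. Tsc22d3 stood at 4.67 FPKM after PCN and 5.63 FPKM after vehicle (-0.12), and Dusp1, a phosphatase of MAP kinases, at 7.37 and 8.71 FPKM (-0.10). Per2 (0.895 and 2.43 FPKM, -1.21) and Arrdc3 (3.92 and 22.4 FPKM, -2.35) fell. The receptor gene Nr3c1 itself was not called at 2.97 and 4.07 FPKM. Lcn2, Mt1 and Mt2 belong to the acute-phase list as well.

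A core of the glucocorticoid response element (GNACA and TGTNC with 3 bases between them) is rare in promoters, at 0.440% of all genes. It was present in 9 of 865 raised genes with a promoter (1.04%) and in 3 of 616 lowered ones (0.487%), against 0.311% of the genes at 1 FPKM or more. The 250 bases before the Serpina3n and Mt1 starts (RefSeq, GRCm38.p6) are shown as 2 strongly raised genes that hold it, in capitals.
Serpina3n, chr12:104406458-104406707, plus strand: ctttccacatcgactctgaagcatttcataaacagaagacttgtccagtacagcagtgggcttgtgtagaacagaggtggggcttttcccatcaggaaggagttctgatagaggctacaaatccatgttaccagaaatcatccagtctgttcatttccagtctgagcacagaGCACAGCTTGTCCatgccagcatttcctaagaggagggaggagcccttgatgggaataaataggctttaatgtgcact
Mt1, chr8:94178839-94179088, plus strand: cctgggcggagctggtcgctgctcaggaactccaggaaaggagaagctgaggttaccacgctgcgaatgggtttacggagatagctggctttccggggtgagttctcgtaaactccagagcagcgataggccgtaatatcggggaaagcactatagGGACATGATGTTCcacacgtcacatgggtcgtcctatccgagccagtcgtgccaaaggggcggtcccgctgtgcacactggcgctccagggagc
Matches are descriptions of these letters and not shown binding sites. In total 12 words were searched on both strands, and the ones named were picked after others had been looked at. Direct repeats of AGTTCA with gaps of 3 and 4 bases and the everted repeat (TGAACT, 6 bases, AGTTCA), arrangements that PXR can bind, were in 0, 3 and 2 of the windows of all 27025 genes and in none of the 6742 at 1 FPKM or more, so they say nothing of the raised genes. The metal response core TGCGCNC was in 21.6% of raised genes, against 13.99% of all genes and 24.3% of those at 1 FPKM or more. The cAMP response element TGACGTCA was in 4.51% of raised and 1.46% of lowered genes, against 1.77% of all genes and 3.07% of those at 1 FPKM or more.

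**Figure D3:**
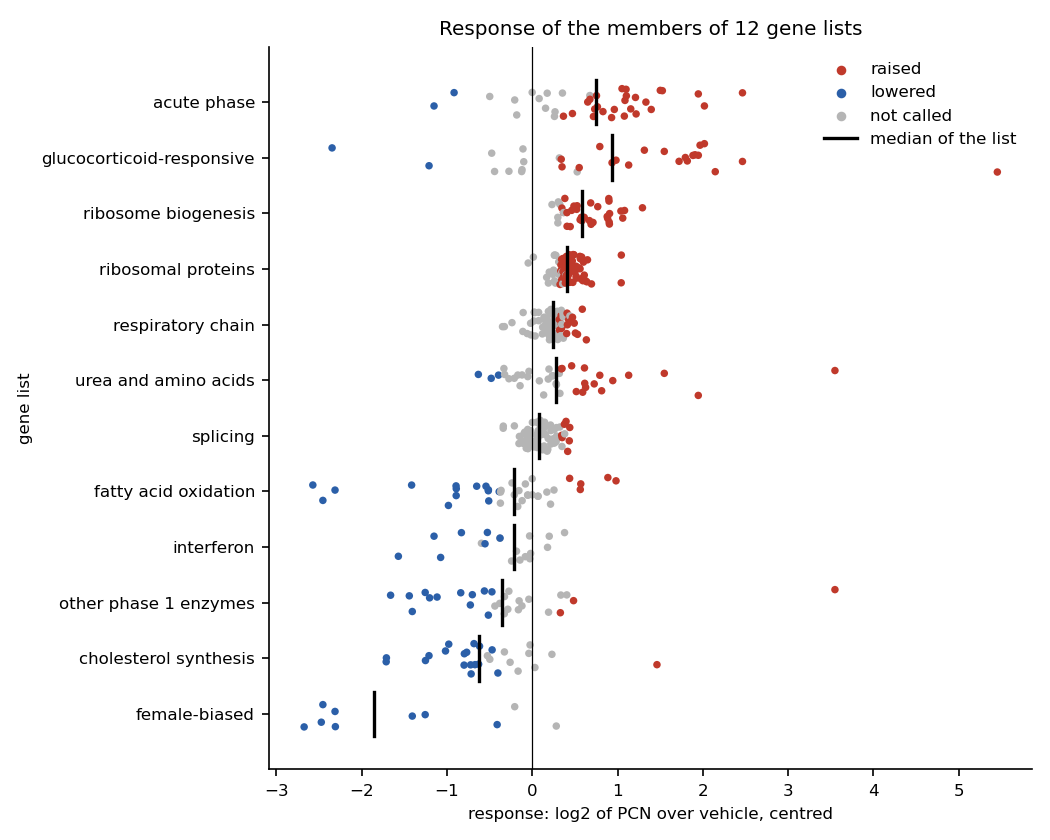
Response of each member of 12 gene lists (x axis, centred log2 of PCN over vehicle; lists on the y axis), coloured by call, with a black line at each list's median. The medians run from 0.94 for glucocorticoid-responsive genes to -0.63 for cholesterol synthesis and -1.86 for female-biased genes (7 of 10 in through the vehicle mean alone), and ribosomal protein genes lie between -0.05 and 1.04 around a median of 0.41.

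Interferon-stimulated genes went down where they were called. Of 20 members 7 fell and none rose (35% lowered), with a median of -0.21. Of the 20, 3 passed the level filter through the vehicle mean alone, Gbp6 among them. Gbp6, a GTPase of cell defence, had 0.941 FPKM in PCN pools and 3.30 FPKM in vehicle pools (-1.57), and the immunoproteasome subunit Psmb8 had 1.69 and 3.40 FPKM (-0.83). The related Gbp11, outside the list, fell further, with 3.61 FPKM after PCN and 24.3 FPKM after vehicle (-2.58).

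The largest response belonged to a stress gene, although Ces2a exceeds it with a pseudocount of 1 FPKM (4.16 against 4.02). Gadd45b, whose product halts growth and protects against cell death (NM_008655, mm9 chromosome 10, 80392836 to 80394949), stood at 20.4 FPKM with PCN and 0.416 FPKM with vehicle. Its response was 5.45, and the authors' deposited table gives a ratio of 54.1 and adjusted p = 7.29e-154. Gadd45a (12.6 and 3.48 FPKM, 1.97), Gadd45g (95.9 and 43.0 FPKM, 1.29) and Cdkn1a, an inhibitor of the cell cycle (7.21 and 1.72 FPKM, 2.15), rose in parallel. They belong to 26 genes of growth arrest and the p53 response, of which 10 rose and 2 fell (38.5% and 7.69%). Of the 26, 2 passed the level filter through the PCN mean alone, Gadd45b among them, and 2 through the vehicle mean alone. Mdm2 and Bax, direct p53 targets, were not called, with responses of 0.09 and -0.20. Myc, which drives growth, rose to 7.88 FPKM with PCN, against 1.98 FPKM with vehicle (2.07). In 21 immediate early genes, 10 rose and 1 fell (47.6% and 4.76%), among them Jun (6.02 and 2.66 FPKM, 1.29), whereas Fos (0.981 and 1.12 FPKM) and Egr1 (5.81 and 6.02 FPKM) were not called. Of the 21, 2 passed the filter through the PCN mean alone and 3 through the vehicle mean alone. Of 13 cell cycle genes, 4 rose and 2 fell (30.8% and 15.4%).

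Several genes of the circadian clock fell. Dbp, a clock output factor, had 0.379 FPKM in PCN pools and 2.52 FPKM in vehicle pools (-2.32), Nr1d1, the repressor REV-ERB alpha, had 2.98 and 7.76 FPKM (-1.22), and Per3 had 0.528 and 1.76 FPKM (-1.43). The core activators Arntl (3.17 and 3.12 FPKM) and Clock (2.62 and 2.84 FPKM) were not called. Of 23 members 6 rose and 8 fell (26.1% and 34.8%), and the rises included Por and Alas1, already given. The median was -0.08, or 0.12 at a filter of 5 FPKM, and 4 of the 23 passed the filter at 1 FPKM through the vehicle mean alone, Dbp and Per3 among them. The labels place injection of both groups in the early morning and collection 3 h later, and any difference in clock time between the groups was not tested.

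Sex-biased genes of both classes fell more often than they rose. Of 10 female-biased genes at 1 FPKM or more, 8 fell and none rose (80% lowered). The median of the list, -1.86, becomes -0.84 with a pseudocount of 1 FPKM. However, 7 of the 10 passed the filter through the vehicle mean alone, and 26 further members were below it. The lowered members include Cyp2b9, a P450 higher in female liver (0.127 FPKM with PCN and 1.14 FPKM with vehicle, -2.31), and Cyp2c69 (0.0835 and 1.02 FPKM, -2.47). Among 33 male-biased genes 3 rose and 11 fell (9.09% and 33.3%), and the falls included Mup12, a major urinary protein (22.5 and 61.4 FPKM, -1.30), and Hsd3b5, a steroid dehydrogenase of male liver (5.77 and 16.4 FPKM, -1.35). Of these 33, 4 passed the filter through the vehicle mean alone. Of 15 Mup genes 4 fell and none rose (26.7% lowered), and 3 of the 15 passed the filter through the vehicle mean alone. In the growth hormone pathway, which sets these patterns, 5 of 19 genes rose and 4 fell (26.3% and 21.1%). The receptor Ghr had 9.62 FPKM after PCN and 20.4 FPKM after vehicle (-0.94), its target Igf1 7.30 and 11.6 FPKM (-0.52), and the feedback inhibitors Socs2 (12.1 and 6.21 FPKM, 1.09) and Socs3 (29.2 and 20.5 FPKM, 0.65) rose. Both Stat5a and Stat5b, which carry the signal, were not called.

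Most genes in 3 lists for making ribosomes were raised. Of 36 ribosome biogenesis genes 30 rose and none fell (83.3% raised), with a median of 0.58 and a range of 0.23 to 1.29. Of 78 ribosomal protein genes 59 rose and none fell (75.6% raised), with a median of 0.41 and a range of -0.05 to 1.04. Of 13 hosts of small nucleolar RNAs 10 rose and none fell (76.9% raised), with a median of 0.76 and a range of -0.26 to 1.23. Of the 36 biogenesis genes, 5 passed the filter through the PCN mean alone. The nucleolar proteins Nop56 (15.2 FPKM in PCN pools, 8.07 FPKM in vehicle pools, 1.04) and Nop2 (6.11 and 3.13 FPKM, 1.08) were near the upper end. Polr1b, a subunit of RNA polymerase I (3.24 and 2.18 FPKM, 0.69), lay nearer the median of that list. Among ribosomal proteins, Rpl10a (76.1 and 40.5 FPKM, 1.04) and Rpl12 (48.9 and 26.05 FPKM, 1.04) stood above the others. The host Snhg3 had 23.4 FPKM with PCN and 10.9 FPKM with vehicle (1.23). Of 74 genes at 1 FPKM or more that the annotation classes as small nucleolar RNAs, 15 were raised and none lowered (20.3% raised). Lowered calls were rare among short genes in general, with 25 raised and 1 lowered of the 232 genes with a span under 1 kb (10.8% and 0.431%). Most of the small nucleolar RNA genes also lie inside host genes whose reads cannot be separated from theirs. Snord1c, for example, lies inside 1810032O08Rik. Snord70, inside Nop58, was listed at 0 in the vehicle group and 1.68 FPKM in the PCN group, and it was not called. Respiratory chain genes had 16 of 78 members raised and none lowered (20.5% raised, median 0.24). Splicing genes had 7 of 67 raised and none lowered (10.4% raised, median 0.08, which becomes negative without centring or at a filter of 5 FPKM).

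**Figure D4:**
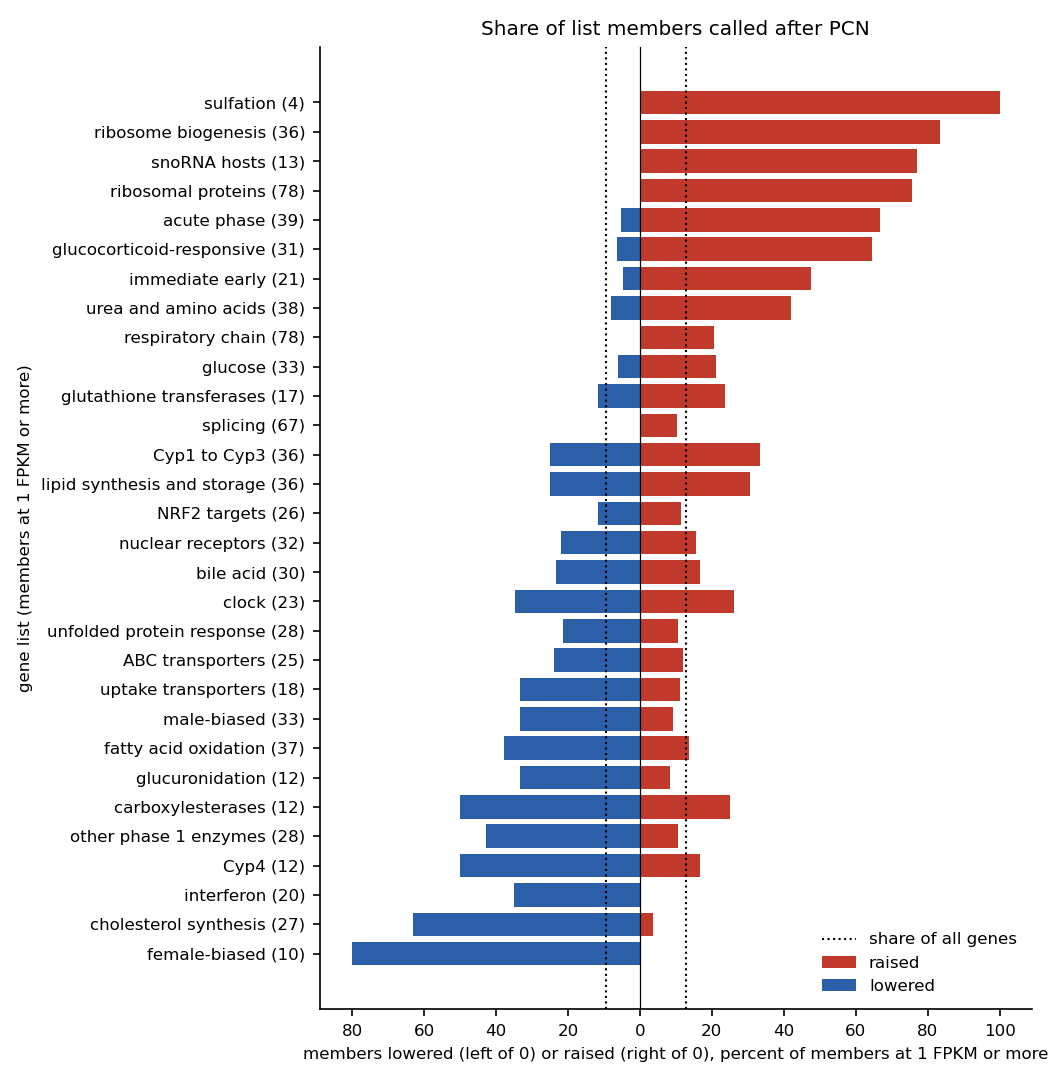
Percent of the members of each of 30 gene lists that were raised (bars to the right of 0) or lowered (bars to the left), with the number of members at 1 FPKM or more in brackets and dotted lines at the shares of all genes, 12.9% raised and 9.41% lowered. Ribosome, acute-phase and glucocorticoid-responsive lists extend to the right, and cholesterol synthesis, interferon and female-biased lists to the left.

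The identity of the tissue was checked with markers of liver cell types. Hepatocyte markers were abundant in both groups, with Alb at 567 FPKM after PCN and 701 FPKM after vehicle, and 4 of 8 rose (50%), among them Tat and Fgb. The 12 Kupffer cell markers summed to 45.5 FPKM in PCN pools and 51.7 FPKM in vehicle pools, and of 10 at 1 FPKM or more only Cd5l was called, lowered (-0.47). Of 13 endothelial markers 3 rose (23.1%), with sums of 117 and 110 FPKM, and all 13 responses were above 0 (0.02 to 0.36). The 12 stellate cell markers summed to 32.5 FPKM after PCN and 32.9 FPKM after vehicle, and none of the 8 at 1 FPKM or more was called. Neutrophil markers were low, summing to 6.75 and 5.24 FPKM over 7 genes, with S100a9 raised (0.73). Lymphocyte markers summed to 4.60 FPKM with PCN and 6.87 FPKM with vehicle over 12 genes, and Cd79b fell. Cholangiocyte markers summed to 6.99 and 7.81 FPKM over 8 genes, and 1 gene fell. Erythroid markers summed to 3.82 and 6.53 FPKM over 7 genes, of which 5 were at 0 in PCN pools and 4 in vehicle pools. Pericentral markers had 3 of 11 raised and 2 lowered (27.3% and 18.2%), periportal markers 2 of 15 raised and 3 lowered (13.3% and 20%). In such bulk samples fewer cells of a type and less RNA per cell cannot be told apart. The part of cell composition in any list's change was not tested.

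The study also gave male mice of the same strain and age TCPOBOP at 3 mg/kg for 3 h, with 2 pools in each group and vehicle pools of their own. Those libraries are labelled stranded, and the doses differ, so values are set side by side and the difference between compounds was not tested. Of the 8691 genes at 1 FPKM or more in both comparisons, PCN raised 1125 and lowered 819, and TCPOBOP raised 118 and lowered 46 (over all 10109 genes at that level in its own comparison, 1.33% and 0.505%). Both compounds raised 71 genes, which are 6.31% of those raised by PCN and 60.2% of those raised by TCPOBOP. Both lowered 12 genes, or 1.47% and 26.1%. Across the 8691 genes the responses had a Pearson correlation of 0.27 and a Spearman correlation of 0.17, given as a description since genes are not independent.

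Genes of the shared response had different sizes under each compound. Cyp2b10 had a response of 4.71 to PCN and 6.62 to TCPOBOP, and Cyp2c55 3.57 and 5.49. For Cyp3a11 the values were 3.11 and 1.92, for Ces2a 4.31 and 3.28, for Gstm3 4.29 and 2.54, and for Por 2.90 and 2.50. Gadd45b had 5.45 with PCN and 3.38 with TCPOBOP. All 7 were called raised in both comparisons by the authors' deposited table. The glutathione transferase Gstt3, in contrast, had a response of -0.17 to PCN and was not called, with 0.858 FPKM after PCN and 1.09 FPKM after vehicle, and it was raised by TCPOBOP.

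In 19 genes the calls pointed in opposite directions, 10 raised by PCN and lowered by TCPOBOP and 9 the other way. PCN thus raised 21.7% of the genes that TCPOBOP lowered and lowered 7.63% of those that TCPOBOP raised, against 12.9% and 9.41% of all genes, so the second count is near the background. At an adjusted p below 0.01 in both comparisons 9 of the 19 remained, without Serpina3n and Mup16. Nnmt had a response of 3.55 to PCN and -1.44 to TCPOBOP, with adjusted p = 3.86e-49 and 1.81e-05 in the authors' deposited table. Serpina3n had 2.23 and -1.24, and Gadd45g 1.29 and -1.04. Cyp21a1, the steroid hydroxylase (25.5 FPKM after PCN and 11.5 FPKM after its vehicle), had 1.28 and -1.26. On the other side, Inmt, a methyltransferase of indole amines, had -0.80 after PCN and 1.38 after TCPOBOP, and Mup16 had -1.09 and 1.22. Acute-phase genes as a list had 26 of 39 raised and 2 lowered with PCN (median 0.75), and 0 raised and 3 lowered with TCPOBOP (median -0.43). Ribosomal protein genes had a median of 0.41 with PCN and -0.02 with TCPOBOP, and cholesterol synthesis genes -0.63 and 0.14.

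**Figure D5:**
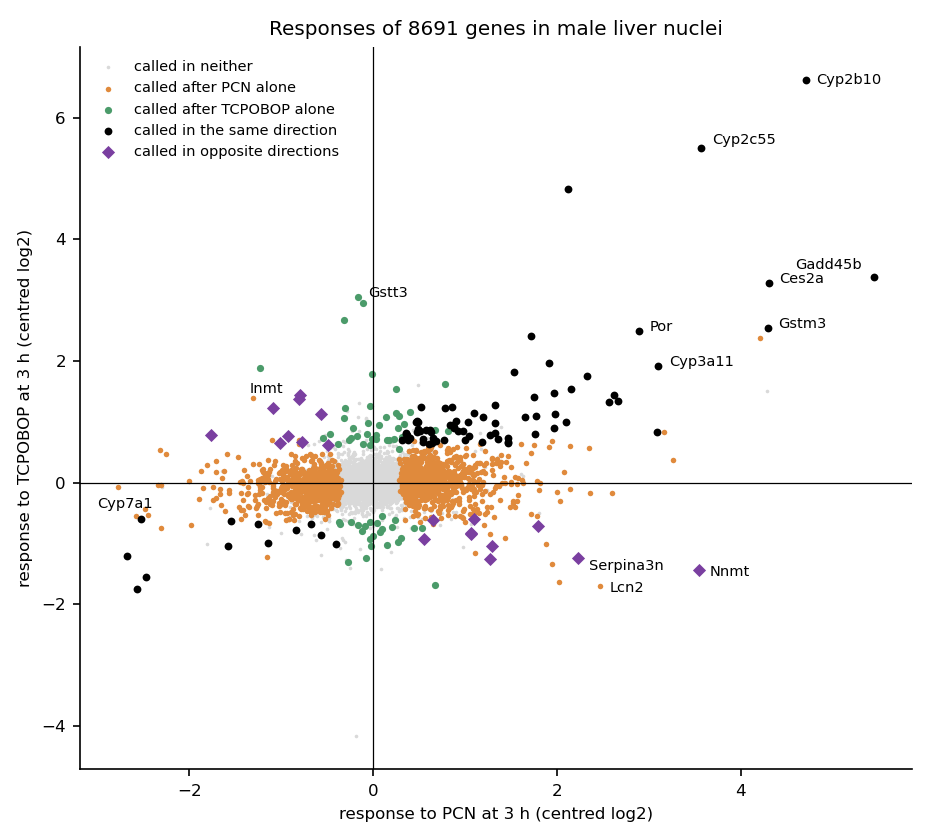
Response to PCN (x axis) and to TCPOBOP (y axis) of 8691 genes in male liver nuclei at 3 h, both as centred log2 of treated over its own vehicle, with colours for the calls. Cyp2b10, Cyp2c55 and Gadd45b lie at the upper right, and the 19 genes called in opposite directions, Nnmt and Serpina3n among them, are drawn as diamonds.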

How the data were processed

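Nuclear poly(A) RNA of male liver was sequenced in 3 PCN pools and 3 vehicle pools. Per the submitters' processing notes, TopHat2, HTSeq 0.6.1p1, featureCounts 1.4.6-p5, edgeR and genome build mm9 were used, with no role given for each. The legend deposited with the table names gene-body counting for all comparisons and HTSeq for the PCN one, which compares PCN pools with vehicle pools. The authors deposited, per gene and comparison, a mean FPKM of each group, a normalized ratio of treated over vehicle (named there as based on the FPKM means) and an adjusted p-value, whose method of adjustment is not given in the sources used here. The labels call the libraries unstranded, while the protocol names a directional kit, and which holds was not settled. No column gives a value per library, so the fit over libraries that was planned could not be made and the calls follow the authors' adjusted p-values, as planned for that case. Results carry no SD, and intervals were not computed. The 17 other value columns of the table were not used.

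Genes at a mean of 1 FPKM or more in either group were kept. The response is log2 of the means plus 0.1, PCN over vehicle, less its median. The authors' log2 ratio exceeded the uncentred log2 FPKM ratio by a median of 0.17, and no called gene differed in sign from its response. The members and the 51 gene lists (1480 symbols) were chosen with earlier results of these data known. Counts are therefore read against the shares of all genes, with no set test and no matching for level. Older symbols were matched through RefSeq synonyms. The genes named are the 20 called genes with the largest and the 20 with the smallest response, called members of the lists and uncalled ones with a leading role, the 10 highest after PCN, the 10 with the largest absolute change each way, those called oppositely after TCPOBOP and any listed at 0 in 1 group. Serpina3n and Gbp11 are named under this rule beside lists that do not hold them, and Gstt3 was chosen after its values were seen. A few genes that the rule would name are not reported here. Depth was read from the steps between low values of genes with 1 location and a span under 1.5 kb, and this reading and the response were tested on simulated data. Cell type markers and the clock, sex and stress lists were described in the same way. Promoters are those of RefSeq (GRCm38.p6), matched by symbol, which found 6742 of the 8918 genes. A gene counts as holding a word if any of its listed promoters does. Tools were Python 3.11.15, numpy 2.4.6, pandas 2.3.3 and matplotlib 3.10.9.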

Additional observations from a re-analysis of the deposited data

How the results depend on the processing

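Counts of called genes depended on how large a difference was asked for. With an authors' fold of at least 1.5 the counts were 623 raised and 474 lowered, and with a fold of at least 2 they were 219 and 154. With a filter at 5 FPKM they were 635 and 353. At an adjusted p of 0.01 there were 800 and 579, without a filter on low values 1264 and 1102, and with the sign of the centred response 1150 and 839. Restricting to genes that overlap no other gene, an alternative chosen after seeing the data, left 877 and 680. Of 41 lists other than cell type markers, 17 had a median response of at least 0.25 in size, and 12 to 25 did under the alternatives for pseudocount, filter, centring, authors' ratio and overlap. None of these 17 changed the sign of its median under any of these alternatives. Without centring, the glucose, cell cycle, growth arrest, coagulation and splicing medians changed sign, at 5 FPKM those of the clock and splicing lists, and without overlapping genes that of the cell cycle list. The 19 genes called in opposite directions after the 2 compounds became 9 at an adjusted p of 0.01 in both comparisons, and 18 without overlapping genes. None of the 489 called genes that were named or listed changed the sign of its response with a pseudocount of 1 or as the authors' ratio. No paired analysis was possible because the table holds no values per library, and for the same reason leaving out each pool in turn was not run. With 1 mean per group, a single pool that decides a value would not be visible here, and depth limits most the genes near 1 FPKM, whose means rest on few reads where the gene is short.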

Other observations

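Genes for secreted hormones and binding proteins changed in equal numbers, 10 raised and 10 lowered of 33 (30.3% each, against 12.9% and 9.41% of all genes). Of the 33, 1 passed the level filter through the PCN mean alone and 2 through the vehicle mean alone. Of the genes named next, Inhbb passed through the PCN mean alone and Fst through the vehicle mean alone. Inhbe, a hepatokine of the activin family, had 4.04 FPKM after PCN and 10.9 FPKM after vehicle (response -1.27), and Fst, which binds activins, 0.468 and 1.83 FPKM (-1.63), while the related Inhbb rose to 1.81 FPKM with PCN, against 0.754 FPKM with vehicle (1.30). Gm6484, listed by RefSeq as an older name of Angptl8, an insulin-induced regulator of lipoprotein lipase, had 7.28 FPKM with PCN and 22.2 FPKM with vehicle (-1.45) and overlaps another gene. Vegfa, a growth factor of blood vessels, fell to 38.7 FPKM with PCN, against 54.5 FPKM with vehicle (-0.36), and Tsku, a secreted protein of the small leucine-rich family, rose to 18.1 against 6.79 FPKM (1.53). Of 24 apolipoprotein and lipase genes 3 rose and 5 fell (12.5% and 20.8%), and Apoa1, the main protein of high-density lipoprotein, was raised at 483 FPKM after PCN and 360 FPKM after vehicle (0.56). In coagulation and complement, 10 of 43 genes rose and 8 fell (23.3% and 18.6%). C4a (134 and 62.2 FPKM, 1.24) was raised and Klkb1, prekallikrein (4.49 and 10.5 FPKM, -1.07), lowered.

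Stress pathways of other kinds had calls in both directions, at raised shares no higher than that of all genes. Of 28 genes of the unfolded protein response, 3 rose and 6 fell (10.7% and 21.4%), with Herpud1 raised (38.7 FPKM after PCN, 26.04 FPKM after vehicle, 0.71) and the chaperone Hspa5 not called (35.4 and 41.1 FPKM). Of 26 targets of NRF2, 3 rose and 3 fell (11.5% each), which is near the shares of all genes. The 3 that rose were Gstm1, Gstm2 and Gstm3, whereas Gclc, which limits glutathione synthesis, fell to 14.3 FPKM with PCN, against 42.9 FPKM with vehicle (-1.44). Histone genes had 1 of 13 raised, H3f3b (37.2 and 16.2 FPKM, 1.33), and 2 lowered (7.69% and 15.4%). Of the 13, 5 passed the level filter through the vehicle mean alone, and 71 further histone genes were below it. Among RNAs that stay in the nucleus, Malat1 fell to 22.8 FPKM with PCN, against 39.1 FPKM with vehicle (-0.64), and Neat1 was not called (85.6 and 108 FPKM). Gas5, a host of small nucleolar RNAs that the list of 6 also held, rose (28.9 and 22.2 FPKM, 0.52).

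Several genes with large responses belong to no list. Rgs16, a regulator of G protein signalling, had 4.81 FPKM in PCN pools and 0.790 FPKM in vehicle pools (2.60), and Dtx4, a ubiquitin ligase, 13.3 and 2.29 FPKM (2.62). Apol7a, an apolipoprotein L gene, had 1.49 FPKM with PCN and 9.96 FPKM with vehicle (-2.52), and Rassf4, which overlaps other genes, 4.57 and 19.1 FPKM (-1.90). Among abundant genes, Slc38a3, a glutamine transporter, fell to 172 FPKM with PCN, against 264 FPKM with vehicle (-0.48), and the class I gene H2-Q10 to 93.6 against 160 FPKM (-0.63). Below the level filter the authors' deposited table called a further 114 genes raised and 263 lowered, which were not analysed here.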
